A study of Mus musculus with 6 samples.

Results

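The genes described here are the receptor tyrosine kinases Csf1r, Kit and Flt3, the Csf1r ligands Csf1 and Il34, and the Kit ligand Kitl. They were chosen by symbol, as the kinases that the inhibitor PLX3397 targets together with the ligands of Csf1r and Kit, and are 6 of the 32285 genes counted. The brains came from C57BL/6 S-56 mice that received 5 µl into the cerebral ventricles at P7 and were collected at P15. The injection held lysophosphatidic acid (LPA), a lipid present in blood, in 3 mice and the vehicle alone, 0.01% bovine serum albumin, in the other 3. Intraventricular LPA serves as a model of hydrocephalus after hemorrhage, and none of these mice received PLX3397. Nuclei of the brain without olfactory bulbs and cerebellum were sorted as negative for the neuronal protein NeuN and sequenced from their 3′ ends, 1 library for each brain.

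Csf1r is the receptor through which microglia and tissue macrophages receive the signal they need to survive, and blocking it removes microglia from the brain. It has a pair of ligands that are unrelated in sequence, Csf1 and Il34, which are made by different cells. Kit serves mast cells, melanocytes, germ cells and blood stem cells, and in the brain it is found in some interneurons; its ligand Kitl is made by endothelial and stromal cells and by neurons. Flt3 is best known from dendritic cell and lymphoid progenitors. All 3 kinases belong to class III of the receptor tyrosine kinases, together with Pdgfra and Pdgfrb.

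In the mm10 genome (GRCm38, GENCODE M21 annotation), Kit lies on chromosome 5 at 75574916 to 75656722 on the plus strand, and Flt3 on the same chromosome at 147330741 to 147400489 on the minus strand. Csf1r is at 61100598 to 61132149 of chromosome 18, on the plus strand, 15537 bases after the end of its paralog Pdgfrb. Csf1 is at 107741048 to 107760469 of chromosome 3 (minus strand), Il34 at 110741829 to 110805924 of chromosome 8 (minus strand) and Kitl at 100015630 to 100100416 of chromosome 10 (plus strand). Antisense genes that are counted apart overlap Il34 (Gm15894 and Gm15895) and Flt3 (Gm26597), and the 3′ end of Csf1r overlaps the end of Hmgxb3 on the other strand. Reads were counted over exons and introns, as is usual for nuclei.

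The 6 libraries held 63383 barcodes, of which 57443 passed the filters, between 7579 and 11745 in a library, with a median of 3732 to 4578 unique molecular identifiers (UMIs, counts of single RNA molecules) in each. LPA libraries held between 50737541 and 54715094 UMIs, and vehicle libraries between 48852970 and 65688644. The nuclei fell into 52 clusters, of which 36 could be named from markers as 19 cell types; each name means that the nuclei are like that type by its markers. The sort left many neurons in, at 22.9% ± 2.6 (SD, n = 3) of nuclei in LPA and 26.6% ± 3.2 in vehicle libraries. The other 16 clusters, 8333 nuclei, stayed unnamed. Xist and chromosome Y genes showed LPA 1, vehicle 1 and vehicle 3 to be male and the other 3 libraries female. A set of 235 barcodes occurred in all 6 libraries, and 22 of these 1410 barcodes by library passed the filters. Between 12.7% and 15.9% of nuclei were called doublets by Scrublet and were kept in the main sums.

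Levels are given as UMIs of a gene per 1000000 UMIs of the same cell type and library (CPM), and differences between LPA and vehicle as log2 fold changes ± SE from edgeR's quasi-likelihood test on UMIs summed per library, adjusted by Benjamini-Hochberg over all genes tested in that cell type. A change is one with an adjusted p under 0.05. The number of UMIs behind a gene was limited: 8731 for Csf1r, 9140 for Csf1, 10068 for Il34, 8984 for Kit, 10554 for Kitl and 1561 for Flt3 in all nuclei together.

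Each of the 6 genes had its own place among the 18 cell types present in every library. Csf1r was high in microglia and macrophages and low in the other 16 types. Il34 was high in pericytes and in part of the meningeal cells, Kitl in endothelial cells, and Kit in meningeal cells and interneurons. Csf1 was spread over oligodendrocytes, meningeal cells, astrocytes and endothelial cells, and Flt3 was low and mainly neuronal.

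**Figure D1:**
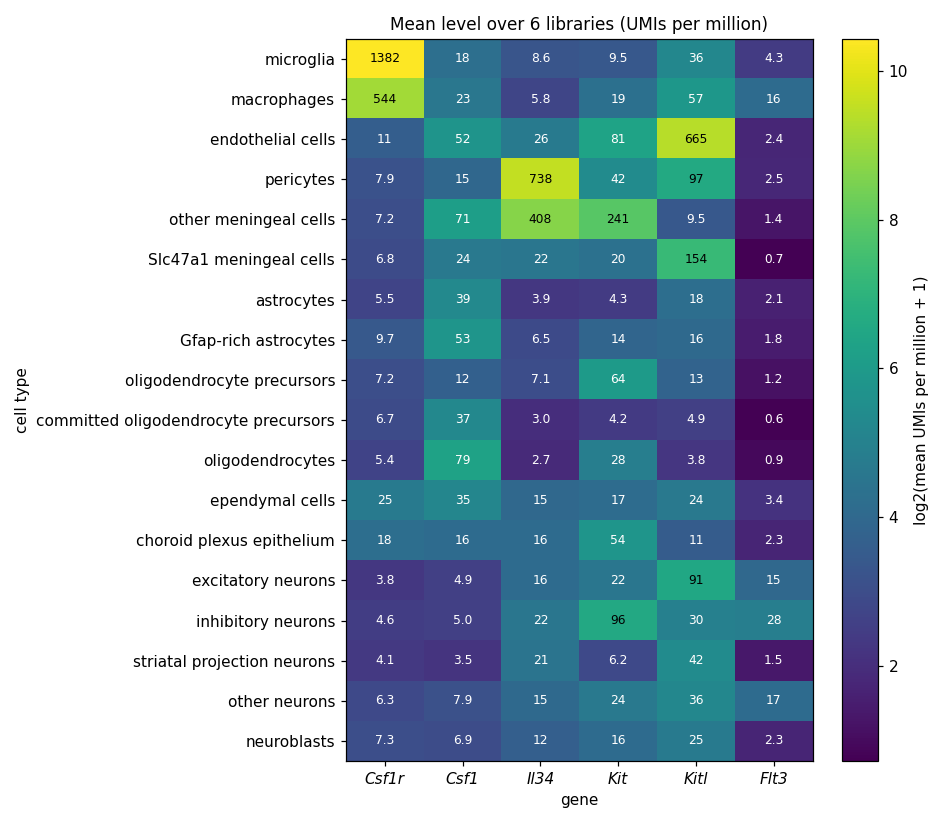
Mean level of each gene (columns) in the 18 cell types present in every library (rows), printed in each cell as the mean of 6 libraries in CPM, with the color on a log2(CPM + 1) scale. Csf1r stands out in microglia (1382) and macrophages (544), Il34 in pericytes (738) and other meningeal cells (408), Kitl in endothelial cells (665) and Kit in other meningeal cells (241).

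Csf1r had its highest level in microglia, at 1382 ± 221 CPM (SD, n = 6 libraries), followed by macrophages at 544 ± 93, and the ranges of these types over libraries did not overlap. The other 16 types had means of 3.85 to 24.9 CPM, led by ependymal cells, and each neighbor in that order overlapped the next. After every nucleus was thinned to 1000 UMIs, Csf1r was found in 75.1% of microglia (69.9% to 83.3% over libraries) and 43.3% of macrophages, against 0.66% of astrocytes, which should lack it. Without thinning the shares were 88.0%, 62.1% and 1.82%, at median depths per library of 1250.5 to 1928 UMIs in microglia and 2611 to 3452 in astrocytes. The genes whose levels across the 18 types were most like those of Csf1r were C1qc, a subunit of complement C1q (Pearson r = 0.99), the lymphoid and myeloid transcription factor Ikzf1 (0.99) and the transporter Abcc3 (0.99). These correlations are descriptions over 18 types of the same libraries, among 17033 genes.

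Not all Csf1r UMIs lay in named immune nuclei. Microglia, activated microglia and macrophages held 38.4% to 58.8% of the Csf1r UMIs of a library. A further 20.8% to 31.1% lay in 2 unnamed clusters of 1015 nuclei, whose leading genes were microglial (such as Siglech and Selplg) but which also scored high for markers of astrocytes or neurons, and they entered none of the tests on microglia.

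In microglia, Csf1r was at 1149, 1362 and 1240 CPM in the LPA libraries and at 1788, 1425 and 1326 CPM in the vehicle libraries. The groups overlapped, since LPA 2 lay above vehicle 3, and vehicle 1 stood above all the others. The log2 fold change was -0.30 ± 0.13, which did not pass the test (adjusted p = 0.59). In this cell type 0.18% of all genes tested passed. With no mitochondrial limit, where activated microglia clustered with microglia, it was -0.74 (adjusted p = 1.6e-05). In macrophages, Csf1r was at 650, 582 and 420 CPM after LPA and at 448, 621 and 544 CPM after vehicle, fully intermingled, with a log2 fold change of -0.03 ± 0.25 (adjusted p = 1.00).

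Another group of immune nuclei, activated microglia, was found almost only in LPA brains, with 142, 205 and 212 nuclei there and 0, 2 and 1 in vehicle brains, so no test between groups was possible. By the detection limit used in naming, 8 of its defining markers were found, but not all. Among those found were Apoe in 94.8%, Gpnmb in 53.4% and Spp1 in 41.8% of nuclei. Of the microglial markers Tmem119 alone is given here, found in 0.89% of these nuclei against 27.6% of microglia. The macrophage gene Stab1 was among its leading genes. Csf1r in activated microglia was at 547, 532 and 579 CPM in the 3 LPA libraries, from 187, 258 and 284 UMIs. In each LPA library this was below the level in microglia and within the range of macrophages, as a description of clusters that were defined on these same nuclei. The share of nuclei with Csf1r after thinning was 41.1% to 44.2%, against 69.9% to 73.7% in microglia of the same libraries.

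Over all immune nuclei together, Csf1r was at 884, 953 and 822 CPM after LPA and at 1318, 1219 and 1030 CPM after vehicle. The groups did not overlap, and the log2 fold change was -0.43 ± 0.12, just outside the threshold (adjusted p = 0.051), where 4.89% of genes tested passed. The mix of these nuclei differed as well: the summed activated microglia markers were at 2768 to 4119 CPM after LPA and 1570 to 1884 after vehicle, and the summed macrophage markers at 2672 to 3075 and 3691 to 4426. Their part in the Csf1r difference was not tested. The result depends on the libraries and settings used, as the fold change was -0.50 with an adjusted p of 0.0099 without vehicle 3.

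**Figure D2:**
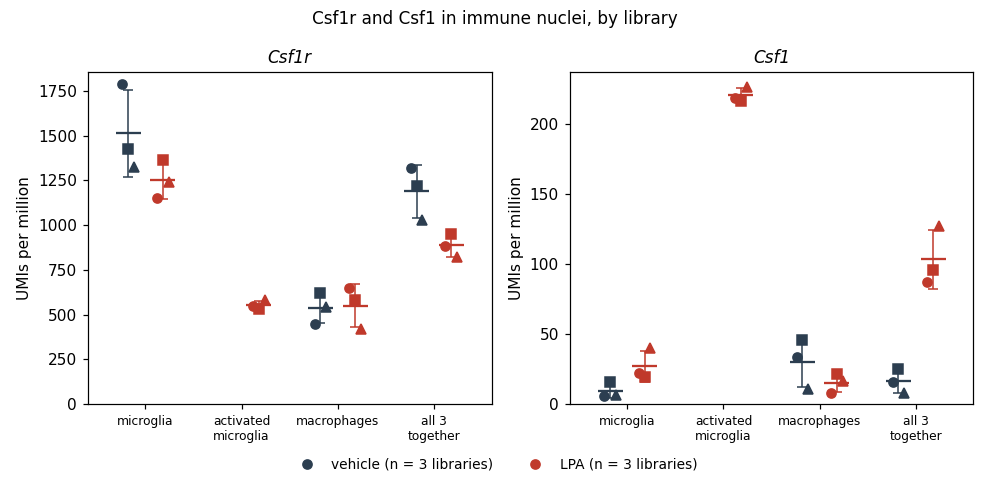
Csf1r and Csf1 in microglia, activated microglia, macrophages and all 3 together, in CPM on a linear axis from 0, with 1 symbol for each library (circle, square and triangle for libraries 1, 2 and 3), red for LPA and dark for vehicle, and bars for the mean ± SD of 3 libraries. Activated microglia are drawn for LPA alone, where Csf1r was at 547, 532 and 579 and Csf1 at 219, 217 and 226.

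Among all nuclei of a library, Csf1r was at 45.8, 48.1 and 32.1 CPM after LPA and at 20.6, 36.8 and 14.5 CPM after vehicle. Vehicle 2 lay above LPA 3, so the groups overlapped, and the log2 fold change of 0.81 ± 0.30 did not pass (adjusted p = 0.17). Without vehicle 2 it was 1.28, with an adjusted p of 0.0080. In sums over all nuclei, more nuclei of a type and more RNA per nucleus cannot be told apart. Immune nuclei made up 5.72% ± 0.44 of nuclei after LPA and 2.20% ± 1.1 after vehicle (n = 3 each; two-sided exact permutation test, p = 0.1, the smallest that 3 against 3 libraries allow). The LPA libraries were then given the mean vehicle mix of named cell types, with all unnamed clusters pooled. Their Csf1r level came to 28.7 ± 5.4 CPM in place of 42.0 ± 8.6, beside 24.0 ± 11.5 measured in vehicle libraries. Proportions of clusters within a type, and among the unnamed clusters, were not adjusted.

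Kit was highest in other meningeal cells, the meningeal clusters not led by Slc47a1, at 241 ± 39 CPM (n = 6). Its level was similar in the large clusters of this type, 245 ± 40 in the one led by Slc7a11 and Bmp6 and 259 ± 52 in the one led by Ptgds and Ranbp3l. Inhibitory neurons (95.7 ± 20), endothelial cells (80.5 ± 13), oligodendrocyte precursors (64.0 ± 5.5), choroid plexus epithelium (54.1 ± 13), pericytes (41.6 ± 12) and oligodendrocytes (28.4 ± 6.1) followed, each with a range that overlapped the next. Among neurons, Kit was at 201 ± 54 CPM in interneurons led by Adarb2 and Vip and at 106 ± 12 in a cluster with Reln, Ndnf and Trp73, genes of Cajal-Retzius cells. The genes most like Kit across the 18 types were the laminin Lama1 (r = 0.82), Arfgap3 (0.77) and the collagen Col18a1 (0.74).

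Mast cells and melanocytes, the cells best known for Kit, were not among the types from which clusters were named. In oligodendrocytes the 6 mast cell markers summed to 0.18 to 0.43 CPM after LPA and 0.37 to 0.68 after vehicle, with Cma1, Mcpt4, Tpsb2 and Ms4a2 at 0 in every library. Over all nuclei they had 72 to 148 UMIs a library, and 1 nucleus of LPA 3 and 0 of the other libraries had 2 of them. The 5 melanocyte markers had 139 to 188 UMIs in an LPA library and 152 to 177 in a vehicle library. Nuclei with 2 melanocyte markers numbered 1 to 2 in an LPA library and 0 to 1 in a vehicle library.

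Kit was lower in oligodendrocytes of LPA brains, and this was the only change of Kit in the 16 cell types in which it was tested. In oligodendrocytes it was at 21.7, 23.1 and 24.8 CPM after LPA, from 101, 132 and 139 UMIs, and at 36.4, 34.0 and 30.6 CPM after vehicle, from 214, 279 and 211 UMIs. All LPA libraries lay below all vehicle libraries, and the log2 fold change was -0.50 ± 0.10 (edgeR's quasi-likelihood test, adjusted p = 0.035), in a cell type where 0.703% of genes tested passed. The call was lost when any 1 of the 6 libraries was left out, with adjusted p-values of 0.061 to 0.21, while the fold change stayed between -0.56 and -0.45. Summed meningeal markers in the same oligodendrocyte nuclei were at 36.9 to 49.1 CPM after LPA and 66.1 to 98.2 after vehicle, and their part in the Kit difference was not tested.

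Of 1076 Kit UMIs in oligodendrocytes, 900 came from 1 of their 3 clusters, the one led by Opalin, a protein of myelinating cells. There Kit was at 57.4, 50.6 and 51.5 CPM after LPA and at 79.6, 71.4 and 68.0 CPM after vehicle, again without overlap. Within that cluster alone the fold change was -0.45 ± 0.11, outside the threshold (adjusted p = 0.060). The cluster led by Prr5l, Anln and Hapln2, genes of mature oligodendrocytes, had Kit at 3.20 ± 3.1 CPM after LPA and 5.61 ± 0.71 after vehicle, and the one led by Creb5 and Casr at 10.6 ± 2.1 and 14.8 ± 4.7, and neither passed (adjusted p = 0.57 and 0.77). The Opalin cluster made up 3.42% ± 0.43 of nuclei after LPA and 5.07% ± 0.28 after vehicle (exact permutation test, p = 0.1).

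In other meningeal cells, where Kit was highest, LPA and vehicle did not separate. Kit was at 191, 269 and 287 CPM after LPA and at 271, 215 and 214 CPM after vehicle, with a log2 fold change of 0.12 ± 0.13 (adjusted p = 0.85). The difference between the effects in other meningeal cells and in oligodendrocytes was itself past the threshold, at 0.61 ± 0.14 on the log2 scale (interaction term in edgeR with library as block, adjusted p = 0.015). It was the only one that passed of the 15 pairs tested for Kit, each of which included oligodendrocytes. In pericytes Kit went the other way, 58.6, 48.5 and 46.2 CPM after LPA and 29.8, 28.0 and 38.7 after vehicle, without overlap, from 9 to 26 UMIs a library and with an adjusted p of 0.56.

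In all nuclei of a library, Kit was at 26.5, 31.9 and 30.7 CPM after LPA and at 41.6, 36.5 and 37.1 CPM after vehicle. The groups did not overlap, and the log2 fold change was -0.37 ± 0.08 (adjusted p = 0.031), where 6.25% of genes tested passed. The call was lost when any library but vehicle 2 was left out. Meningeal cells, which include the type with the highest Kit level, were 4.37% ± 0.77 of nuclei after LPA and 9.78% ± 0.69 after vehicle. Other meningeal cells held 16.1% ± 4.7 of the Kit UMIs of LPA libraries and 24.9% ± 1.4 of those of vehicle libraries, so most Kit UMIs lay elsewhere. The authors name poorer recovery of meninges from hydrocephalic brains as a possible reason for fewer vascular cells, which was not tested here. With the vehicle mix of cell types, unnamed clusters pooled, the LPA level came to 34.4 ± 3.4 CPM in place of 29.7 ± 2.8, beside 38.4 ± 2.8 in vehicle libraries.

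Flt3 had the fewest UMIs of the 6 genes and was highest in neurons. It was at 28.2 ± 5.8 CPM in inhibitory neurons, 16.5 ± 2.7 in other neurons and 15.2 ± 4.0 in excitatory neurons. Within these, the interneuron cluster with Sst and Kcnc2 had 41.3 ± 9.6 CPM, the one with Adarb2 and Vip 7.2, and the cluster led by C1ql3 and Prox1, genes of dentate granule cells, 33.8 ± 9.8. The level in macrophages, 16.2 ± 17, rested on 11 UMIs in 298 nuclei, with 0 in LPA 3 and vehicle 2. Flt3 was tested in 3 cell types and changed in none, with adjusted p-values of 0.75 to 1.00. In inhibitory neurons it was at 33.7, 18.4 and 26.0 CPM after LPA and at 30.4, 33.8 and 27.0 CPM after vehicle, intermingled.

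Csf1, unlike Il34, was found in many cell types. Oligodendrocytes were highest, at 78.8 ± 6.4 CPM, followed by other meningeal cells (71.5 ± 5.5), Gfap-rich astrocytes (53.4 ± 20), endothelial cells (52.1 ± 13) and the remaining astrocytes (38.6 ± 2.4). The ranges of neighbors overlapped down to endothelial cells, which did not overlap with astrocytes. Among oligodendrocytes, Csf1 was at 121 ± 4.5 CPM in the Prr5l and Hapln2 cluster, 69.3 ± 8.0 in the Opalin cluster and 22.3 ± 5.0 in the Creb5 cluster. The genes most like Csf1 in level were Hadh, an enzyme of fatty acid oxidation (r = 0.95), and Plekhg1 (0.95).

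Csf1 rose after LPA in Gfap-rich astrocytes, the nuclei with high Gfap, C4b and Myoc. It was at 74.0, 60.9 and 77.2 CPM in LPA libraries, from 113, 106 and 115 UMIs, and at 35.4, 33.6 and 39.4 CPM in vehicle libraries, from 10, 20 and 18 UMIs. Every LPA library lay well above every vehicle library, the mean of LPA libraries was 1.96 times that of vehicle libraries, and the log2 fold change was 1.06 ± 0.21 (adjusted p = 0.0021). This was a cell type with many changes, as 9.02% of genes tested passed. The call held in all 15 alternative fits. At Leiden resolution 2 the type was split into a cluster of 1457 nuclei led by Gfap and C4b, of which 81.2% were from LPA libraries, and a cluster of 599 nuclei led by Sfta3-ps, Adgrv1 and Thbs4, of which 36.2% were. Both clusters kept the name Gfap-rich astrocytes and were summed together in the resolution 2 fit. The difference was not tested within each of these clusters, and the part of their proportions in it was not tested.

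Gfap-rich astrocytes themselves made up 5.28% ± 0.25 of nuclei after LPA and 1.93% ± 0.35 after vehicle (exact permutation test, p = 0.1). Their own markers were summed at 1530 to 1616 CPM after LPA and 1211 to 1358 after vehicle. Microglial markers in the same nuclei were at 111 to 130 and 83.1 to 188 CPM, so they overlapped between groups, with 9 of 10 markers found and P2ry13 at 0. The summed markers of activated microglia were lower after LPA, at 1668 to 2027 CPM against 3558 to 4319, a list that includes Apoe, which astrocytes express, and of which Cst7 was at 0.

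The remaining astrocytes did not show this difference. Csf1 was at 36.7, 42.4 and 40.1 CPM there after LPA and at 39.3, 36.9 and 36.2 CPM after vehicle, overlapping, with a log2 fold change of 0.12 ± 0.10 (adjusted p = 0.61). The effect in the remaining astrocytes minus that in Gfap-rich astrocytes was -0.93 ± 0.24 on the log2 scale (interaction, adjusted p = 0.0091). The effect in Gfap-rich astrocytes also exceeded those in oligodendrocytes, other meningeal cells and committed oligodendrocyte precursors. Those were all the differences that passed among the 12 pairs tested, each of which included Gfap-rich astrocytes. In oligodendrocytes, the type with the most Csf1, the libraries were intermingled at 90.8, 75.6 and 73.2 CPM after LPA and 76.8, 80.7 and 75.8 CPM after vehicle.

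**Figure D3:**
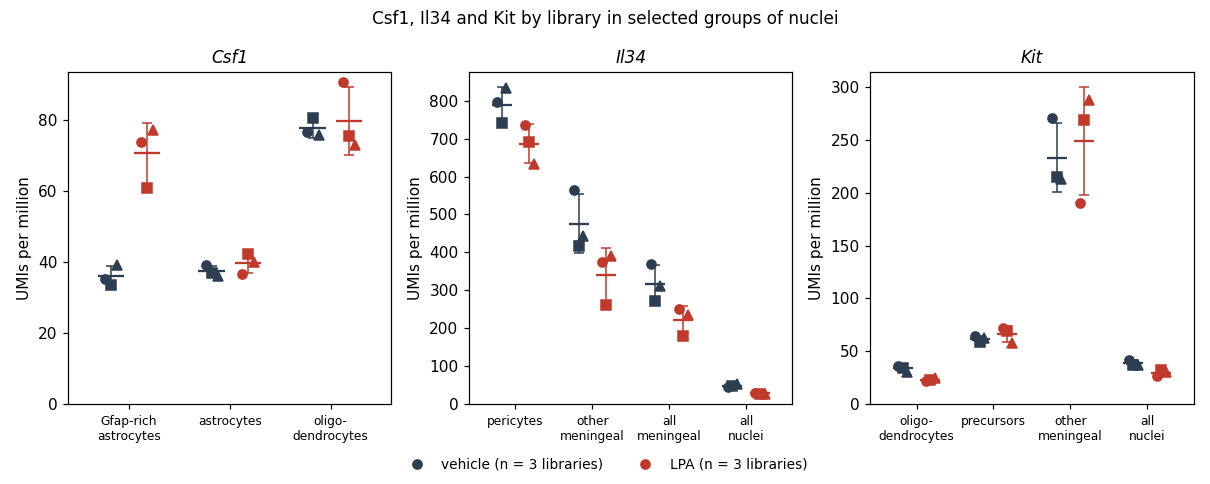
Csf1, Il34 and Kit by library in the groups of nuclei that the text turns on, in CPM on linear axes from 0, with 1 symbol for each library (circle, square and triangle for libraries 1, 2 and 3) and bars for the mean ± SD of 3 libraries; precursors are oligodendrocyte precursors. Csf1 in Gfap-rich astrocytes was at 60.9 to 77.2 after LPA and 33.6 to 39.4 after vehicle, and Kit in oligodendrocytes at 21.7 to 24.8 and 30.6 to 36.4.

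The other place with more Csf1 after LPA was the immune nuclei. Csf1 was at 87.1, 95.9 and 127 CPM in all immune nuclei of LPA libraries, from 88, 120 and 129 UMIs, and at 15.7, 24.8 and 7.9 CPM in those of vehicle libraries, from 4, 17 and 2 UMIs. No vehicle library came near an LPA library, and the log2 fold change was 2.43 ± 0.30 (adjusted p = 3.6e-05). Most of these UMIs were in activated microglia, with 75, 105 and 111 of them, at 219, 217 and 226 CPM. In the other microglia Csf1 was at 22.0, 19.2 and 39.9 CPM after LPA and at 6.0, 15.7 and 6.5 CPM after vehicle, without overlap but from 1 to 16 UMIs a library, too few for the test. Macrophages had 18 Csf1 UMIs in all, with overlapping groups. The fold change over all immune nuclei thus spans a difference in which nuclei were there, and the number of activated microglia and the RNA per nucleus cannot be told apart in it.

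The cells that held Csf1 UMIs differed in the same way. Gfap-rich astrocytes held 7.08% ± 0.62 of the Csf1 UMIs of an LPA library and 1.07% ± 0.16 of those of a vehicle library, and activated microglia 6.14% ± 1.1 against 0.019%. Oligodendrocytes held 26.8% ± 0.97 after LPA and 37.3% ± 2.7 after vehicle, and they were 9.51% ± 0.44 and 13.5% ± 0.59 of nuclei. Over all nuclei Csf1 was at 36.8, 38.1 and 35.2 CPM after LPA and at 30.8, 34.6 and 32.0 CPM after vehicle, a difference of 0.18 ± 0.06 on the log2 scale that did not pass (adjusted p = 0.15) although the groups did not overlap.

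**Figure D4:**
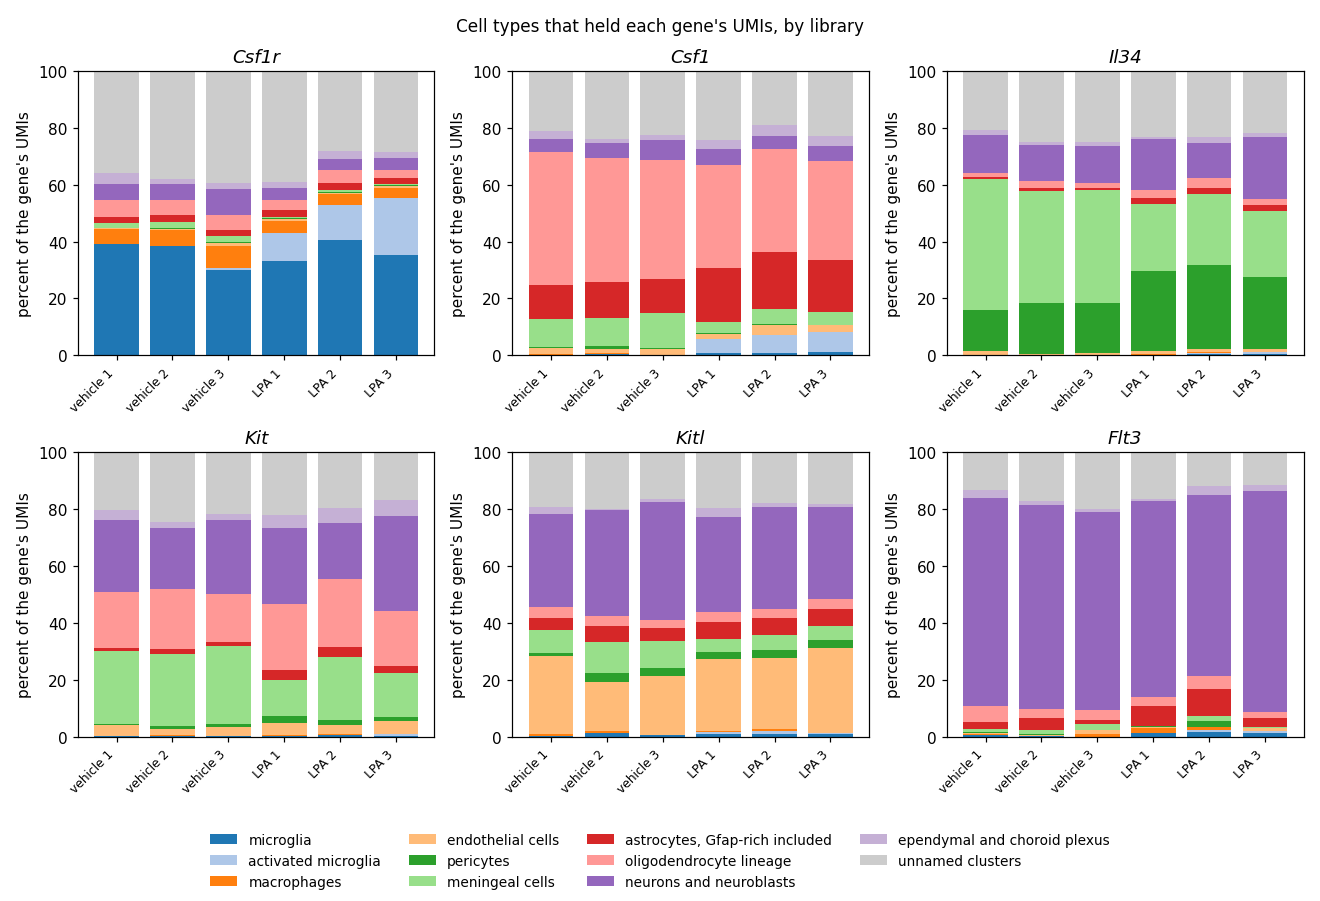
Stacked bars of the percent of the UMIs of each gene that lay in each group of nuclei, with 1 bar for each of the 6 libraries. The mean share of pericytes in Il34 was 27.5% after LPA and 16.6% after vehicle, and activated microglia show in the Csf1r and Csf1 bars of the LPA libraries.

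Il34 had its highest levels in cells of the vessel wall and the meninges. Pericytes had 738 ± 72 CPM and other meningeal cells 408 ± 99, and these did not overlap with each other or with the next type, endothelial cells at 25.7 ± 8.9. Neurons, known as a source of Il34 in the adult forebrain, were lower, with inhibitory neurons at 22.3 ± 7.4, striatal projection neurons at 20.8 ± 2.2 and excitatory neurons at 16.4 ± 3.6 CPM, from nuclei sorted for low NeuN. Meningeal cells were not alike: the Slc7a11 and Bmp6 cluster was at 559 ± 96 CPM, the Ptgds and Ranbp3l cluster at 135 ± 30, and Slc47a1 meningeal cells at 22.1 ± 8.7. After thinning, Il34 was found in 47.2% of pericytes and 27.4% of other meningeal cells, against 0.37% of astrocytes. Without thinning the shares were 68.3%, 46.1% and 1.29%. The genes most like Il34 were the laminin Lamc3 (r = 0.94), Gm15261 (0.93) and Lrrc32 (0.91).

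Il34 was lower after LPA over all nuclei of a library. It was at 28.2, 27.7 and 27.3 CPM in LPA libraries and at 45.7, 46.5 and 51.9 CPM in vehicle libraries, far apart and with little spread. The log2 fold change was -0.79 ± 0.06 (adjusted p = 0.00069), and this call held in all 14 alternative fits. Other meningeal cells, where 23.0% ± 0.67 of the Il34 UMIs of LPA libraries and 40.6% ± 4.1 of those of vehicle libraries lay, were 2.99% ± 0.53 of nuclei after LPA and 6.83% ± 0.57 after vehicle. With the vehicle mix of cell types, unnamed clusters pooled, the LPA level came to 35.2 ± 2.8 CPM in place of 27.7 ± 0.47, beside 48.0 ± 3.4 in vehicle libraries. Proportions of clusters within other meningeal cells, which differed in Il34, and among the unnamed clusters were not adjusted, and their part was not tested. Nor was the part of meninges recovered less well from hydrocephalic brains, which the authors name as a possible reason for fewer vascular cells.

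Within all meningeal cells Il34 was lower as well, at 250, 178 and 235 CPM after LPA and 369, 272 and 310 CPM after vehicle. The groups did not overlap, and the log2 fold change was -0.51 ± 0.12 (adjusted p = 0.041), where 0.944% of genes tested passed. The call was lost without LPA 2, LPA 3, vehicle 1 or vehicle 3, with fold changes of -0.36, -0.56, -0.40 and -0.52. In other meningeal cells alone, Il34 was at 374, 260 and 390 CPM after LPA and 564, 418 and 444 CPM after vehicle, with a fold change of -0.48 ± 0.13 that did not pass (adjusted p = 0.079). The cluster with the most Il34, led by Slc7a11 and Bmp6, made up 1.90% ± 0.13 of nuclei after LPA and 4.91% ± 0.038 after vehicle (exact permutation test, p = 0.1), and in it the fold change of Il34 was -0.38 ± 0.11 (adjusted p = 0.079).

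In pericytes, the type with the highest level, Il34 was at 735, 690 and 632 CPM after LPA and at 796, 741 and 832 CPM after vehicle. The groups just failed to overlap, and the log2 fold change of -0.21 ± 0.10 did not pass (adjusted p = 0.66). Pericytes themselves made up 2.16% ± 0.078 of nuclei after LPA and 2.19% ± 0.29 after vehicle (exact permutation test, p = 0.9). Meningeal markers in pericyte nuclei were at 326 to 341 CPM after LPA and 491 to 688 after vehicle, and their part in this difference was not tested. Across the 13 types in which it was tested, Il34 had a negative fold change in 12, and 0 passed the test.

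Kitl was the clearest endothelial gene of the set. Endothelial cells had 665 ± 56 CPM, Slc47a1 meningeal cells 154 ± 17, pericytes 96.6 ± 21 and excitatory neurons 90.9 ± 20, and neither of the first 2 types overlapped with the one below it. Among excitatory neurons the small cluster with Ebf2, Ebf3 and Calb2 had 304 ± 55 CPM. Kitl was found after thinning in 46.3% of endothelial cells and 0.31% of oligodendrocytes, and without thinning in 74.2% and 1.97%. The genes most like it were Pwwp2b (r = 0.87), the phospholipid transporter Atp10a (0.85) and Tmsb10 (0.84).

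Kitl changed in none of the 16 types tested. In endothelial cells it was at 634, 574 and 722 CPM after LPA and at 722, 661 and 679 CPM after vehicle, overlapping, with a log2 fold change of -0.11 (adjusted p = 0.91). In all immune nuclei Kitl was at 27.7, 36.0 and 21.7 CPM after LPA, from 22 to 45 UMIs, and at 51.0, 56.9 and 43.2 CPM after vehicle, from 11 to 39 UMIs. The groups did not overlap, and the fold change was -0.86 ± 0.26 (adjusted p = 0.064). In the excitatory neuron cluster led by C1ql3 and Prox1, Kitl was at 115, 141 and 107 CPM after LPA and 83.6, 74.8 and 83.2 CPM after vehicle, a log2 fold change of 0.60 ± 0.15 (adjusted p = 0.059).

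Counted over cell types, the 6 genes gave 70 tests of LPA against vehicle, and 2 passed, Csf1 in Gfap-rich astrocytes and Kit in oligodendrocytes. This is 2.86% of the tests, against 1.45% of all tests of all genes in the same 18 types. Of the 70 fold changes, 28 were above 0 and 42 below. Csf1 was above 0 in 12 of 13 types, and Kitl below 0 in 12 of 16. The types share libraries, so these counts are descriptions, and the counts of signs have no share of all genes beside them. Some signs changed with the fit, as for Kitl in ependymal cells, which kept its sign in 9 of 15 alternative fits.

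**Figure D5:**
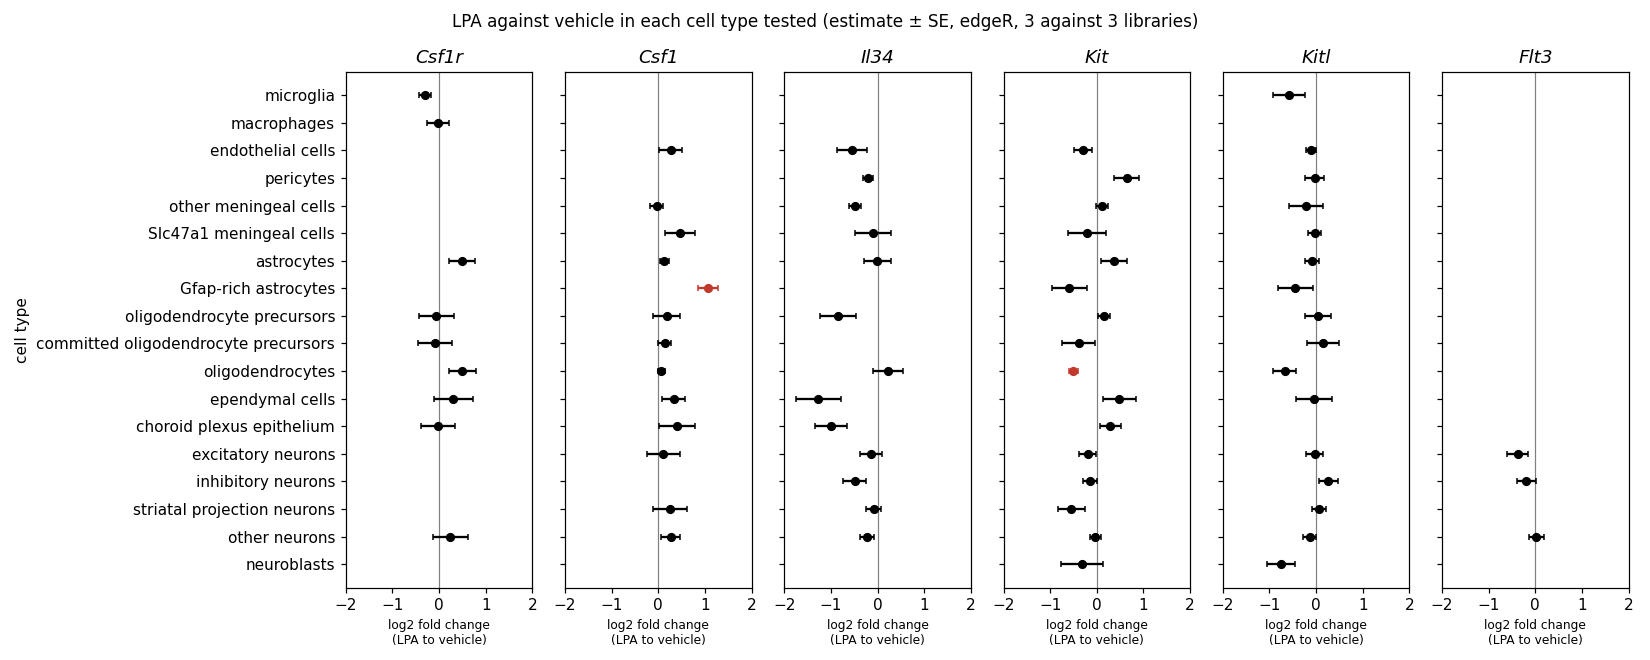
Log2 fold change of LPA against vehicle for each gene in each cell type in which it was tested, with bars for ± SE from edgeR's quasi-likelihood test and red symbols for an adjusted p under 0.05. The 2 red symbols are Csf1 in Gfap-rich astrocytes (1.06) and Kit in oligodendrocytes (-0.50).

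Of 48 other genes of these pathways, 43 could be tested in at least 1 of the 18 types. In 538 tests 13 were higher and 3 lower after LPA, with a median log2 fold change of 0.053. Of all tests of all genes in the same types 1.45% passed, and in Gfap-rich astrocytes alone 9.02%. The other ligands, receptors and binding partners gave 3 higher in 64 tests. Sdc2, a syndecan that binds growth factors, rose in Gfap-rich astrocytes beside Csf1, from 123 ± 17 to 225 ± 4.8 CPM (log2 fold change 1.01 ± 0.12, adjusted p = 1.1e-05), and Ptprz1, a phosphatase to which Il34 binds, rose in committed oligodendrocyte precursors and ependymal cells (0.43 ± 0.08 and 0.51 ± 0.11, adjusted p = 0.0014 and 0.0091). Of 320 tests on adaptors, kinases and phosphatases, 10 were higher and 3 lower. Stat3 rose in Gfap-rich astrocytes and in the remaining astrocytes (0.49 ± 0.12 and 0.34 ± 0.08), and Gab2, an adaptor of receptor kinases, in committed precursors and Slc47a1 meningeal cells (0.33 ± 0.08 and 0.52 ± 0.11). None of 31 tests on Pdgfra and Pdgfrb, of 69 on transcription factors that drive Csf1r or of 54 on sheddases passed by edgeR's quasi-likelihood test.

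In all immune nuclei, 42 of these genes were tested, and 3 rose while none fell, where 4.89% of all genes tested passed. Fli1, an Ets factor of blood and endothelial cells, was at 1272 ± 138 CPM after LPA and 764 ± 58 after vehicle (log2 fold change 0.73 ± 0.13, adjusted p = 0.0012). Irf8, which microglia need to develop, was at 286 ± 6.8 and 185 ± 25 CPM (0.59 ± 0.13, adjusted p = 0.0092), and Gab2 at 1224 ± 65 and 911 ± 30 CPM (0.42 ± 0.12, adjusted p = 0.044). Spi1, the factor best known for switching on Csf1r, was at 210 ± 15 and 205 ± 28 CPM and did not pass. As for Csf1 and Csf1r, the pooled immune nuclei of LPA brains held the activated microglia that those of vehicle brains lacked.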

How the data were processed

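Single-nucleus RNA-seq was analysed from 6 libraries, 3 LPA and 3 vehicle, grouped by their labels. The deposited matrices hold raw UMI counts, made by the authors with Cell Ranger 4.0.0 on an mm10 pre-mRNA reference. Their SCTransform integration and label transfer were not repeated, and their Wilcoxon test on nuclei was not used. Per-sample columns left unused numbered 0.

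Nuclei with fewer than 300 genes, over 1% mitochondrial UMIs or UMIs above 1.5 interquartile ranges were removed. Clustering used scanpy 1.11.5 and leidenalg 0.10.2 (Python 3.11.15; 3000 variable genes without members, markers and related genes, 40 components, 30 neighbors, resolution 1, seed 1). Clusters were named from marker lists. Raw UMIs were summed per library and cell type, for types with at least 10 nuclei in every library, and tested with edgeR 4.0.16 (R 4.3.3; quasi-likelihood, filterByExpr, TMM, Benjamini-Hochberg). The library was the replicate. Effects in pairs of cell types were compared in edgeR with library as block, and shares of nuclei by a two-sided exact permutation test (20 assignments, smallest p 0.1). Thinning drew 1000 UMIs per nucleus without replacement, leaving out shallower nuclei (53 of 1352 microglia and 44 of 8386 astrocytes).

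All 6 members are named in the text; related genes came from 5 lists by role, and for each member the 3 genes with the highest Pearson r of mean log2(CPM + 1) are named, except where a gene is not reported here. The members and lists were chosen with earlier results of these data known, and some clusters were singled out after their values were seen. Replicates differed by more than sampling noise (chi-square per degree of freedom 12.5 to 25.0). Scripts were tested on simulated data. Alternatives were leaving out each library, the replicate number as block, DESeq2 1.42.0, other size factors, no filter on low counts, no mitochondrial limit, Scrublet doublets out, resolution 2, a sex term and, added after the data were seen, barcodes shared by 3 or more libraries out. Proteomic, cytokine and PLX3397 data were not used here.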

Additional observations from a re-analysis of the deposited data

Results flagged for a closer look

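In all, 5 differences between cell types stood out because the effect of LPA was tested against that in another type and the difference itself passed (interaction term in edgeR's quasi-likelihood test with library as block). For Csf1, the log2 fold change in the remaining astrocytes minus that in Gfap-rich astrocytes was -0.93 ± 0.24 (adjusted p = 0.0091), and that in committed oligodendrocyte precursors minus Gfap-rich astrocytes was -0.95 ± 0.26 (adjusted p = 0.018). The effect on Csf1 in oligodendrocytes minus that in Gfap-rich astrocytes was -1.02 ± 0.23 (adjusted p = 0.0026), and in other meningeal cells minus Gfap-rich astrocytes it was -1.14 ± 0.26 (adjusted p = 0.0046). For Kit, the effect in other meningeal cells minus that in oligodendrocytes was 0.61 ± 0.14 (adjusted p = 0.015). In each Csf1 pair the Gfap-rich astrocytes had the higher fold change. These 5 were found among 27 pairs, 12 for Csf1 and 15 for Kit, and their causes were not tested. Every pair included the type in which the gene had passed, Gfap-rich astrocytes for Csf1 and oligodendrocytes for Kit. Pairs of other types were not tested, so the pairs were selected on these same data.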

How the results depend on the processing

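Values in this paragraph are log2 fold changes of LPA against vehicle with edgeR's adjusted p unless said otherwise. Csf1 in Gfap-rich astrocytes (0.98 to 1.17) and in all immune nuclei (2.10 to 3.13) passed in all 15 alternative fits, and Il34 in all nuclei (-0.83 to -0.71) in all 14. Il34 in all meningeal cells passed in 2 of 6 fits without 1 library (-0.61 to -0.36) and not with a sex term (-0.41, adjusted p = 0.063). Kit in oligodendrocytes passed in 0 of 6 fits without 1 library (-0.56 to -0.45), and not with no mitochondrial limit (-0.42, adjusted p = 0.064) or a sex term (-0.53, adjusted p = 0.051); DESeq2 gave it no adjusted p. Kit in all nuclei passed in 1 of 6 (-0.41 to -0.28) and not with a sex term (-0.39, adjusted p = 0.050, just over the threshold). Il34 in oligodendrocytes, 0.23 in the main analysis, reversed with no mitochondrial limit to -1.28 (adjusted p = 0.0083). There the type took in a cluster of 237 nuclei, 20.7% from LPA libraries, with Slc6a13, Bmp6 and Col4a6 among its leading genes. A cluster of 238 nuclei with the same 3 genes among its leading genes was unnamed in the main analysis, so the 2 fits differ in their nuclei. The causes were not tested. Fits of single genes numbered 1294, and 1262 kept their side of the threshold. Some of these changed direction where neither fit passed, as for Il34 in astrocytes, which kept its sign in 8 of 15 fits. Il34 passed in other meningeal cells in 3 of 15 fits, and Csf1r in all immune nuclei in 4 of 15 fits and in all nuclei in 2 of 15 (1.28 without vehicle 2).

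The replicate numbers were not used as pairs in the main analysis. Same-number correlations of deviations ran from -0.17 to 0.27 over the 18 types, and in 0 of them was every pair over 0.1. Over all nuclei the 3 same-number correlations were 0.15, 0.38 and -0.032. LPA 1 with vehicle 1 and LPA 2 with vehicle 2 were positive in every type, but so was LPA 3 with vehicle 2. LPA 3 with vehicle 3, which were of unlike sex, was mostly negative. With so few pairs the check could not decide whether the libraries were paired. With the number as a block, Kit did not pass in oligodendrocytes (-0.50, adjusted p = 0.10) or in all nuclei (-0.37, adjusted p = 0.056), and Csf1r passed in all nuclei (0.89, adjusted p = 0.023). Under this replicate block, 10 tests of related genes, 48 genes in oligodendrocytes and 8 in microglia passed.

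Of the tests of the 6 genes in cell types, 2 passed in the main analysis, 1 in each fit without 1 library (lowest and highest both 1), 5 with no mitochondrial limit, where activated microglia merged with microglia, and 1 with a sex term. In all nuclei 2 passed, 1 to 3 without 1 library and 1 with a sex term. Of related genes 16 tests passed, 6 to 13 without 1 library, 26 with no filter on low counts and 10 with a sex term. Genes passing in Gfap-rich astrocytes numbered 972, and 579 by DESeq2. In oligodendrocytes they numbered 93, 8 to 234 without 1 library and 310 with no filter. In microglia they numbered 14, 3 to 45 without 1 library, 67 with no filter, 844 with no mitochondrial limit, 46 without doublets, 49 at resolution 2 and 9 with a sex term. In all immune nuclei they numbered 497, 245 to 573 without 1 library, 278 by DESeq2 and 755 with no filter. In all meningeal cells they numbered 118, 64 to 130 without 1 library, 309 with no filter and 475 with no mitochondrial limit. In all nuclei they numbered 1263, and 485 to 1467 without 1 library. The type with the highest level stayed the same for all 6 genes without doublets, at resolution 2 and by UMIs per nucleus, and for 5 after thinning, where Flt3 was highest in macrophages (2.29% of nuclei). Depth limits Flt3 and all genes in macrophages, where 0 of 3081 genes passed and 155 had an unadjusted p under 0.05 by edgeR.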

Other observations

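Of the 48 related genes, 13 rose and none fell over all nuclei of a library, where 6.25% of all genes tested passed. All were tested there except among the other ligands, receptors and binding partners, of which 7 of 9 were. Factors of myeloid cells rose, with Runx1 at a log2 fold change of 1.51 ± 0.23 (edgeR's quasi-likelihood test, adjusted p = 0.0078), Irf8 at 1.44 ± 0.24 (adjusted p = 0.012) and Fli1 at 1.02 ± 0.06 (adjusted p = 0.00021). Receptor subunits of other myeloid growth factors rose as well, Csf2rb by 1.57 ± 0.18 (adjusted p = 0.0025) and Csf3r by 1.46 ± 0.30 (adjusted p = 0.026). So did Inpp5d, Ptpn6, Pik3cg, Syk, Pik3cd, Plcg2, Lyn and Stat3, phosphatases, kinases, a phospholipase and a transcription factor that act downstream of Csf1r, with 0.27 to 1.13. Csf1r itself, at 0.81 ± 0.30, did not pass. Of the 13 genes, Fli1 and Irf8 alone also passed in all immune nuclei. Of the adaptors, kinases and phosphatases only Gab2 passed there, in 25 tests, and Stat3 passed in both astrocyte types. In these sums over all nuclei, more nuclei of a type and more RNA per nucleus cannot be told apart.

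Markers of monocytes and neutrophils summed over all nuclei to between 233 and 287 UMIs for each LPA library, against 32 to 39 for vehicle. Clusters were not named from this list. Nuclei with 2 of the 6 markers numbered 1 in each LPA library and 0 in each vehicle library. In the pooled immune nuclei the markers summed to 7.91 to 15.2 CPM after LPA and 8.76 to 31.4 after vehicle, with Ly6c2, S100a8, S100a9 and Retnlg at 0. With no mitochondrial limit, an unnamed cluster of 339 nuclei was led by S100a9 and S100a8, and 53.4% of its nuclei were from LPA libraries.

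An unnamed cluster led by Dpp4 and Cubn, of 402 nuclei, had Kit at 146 CPM over all libraries pooled, above every named type except other meningeal cells.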
